A study of Mus musculus with 12 samples.

Results

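The troponin and tropomyosin isoforms were followed in 2 leg muscles, soleus and tibialis anterior (TA), of mice with and without H6pd. All probe sets assigned to only 1 of the symbols Tnni1, Tnni2, Tnnc1, Tnnc2, Tnnt1, Tnnt3, Tpm1, Tpm2 and Tpm3 were taken, which gave 21 of the 45101 probe sets on the array and 9 of the 18193 genes that have a probe set of their own. Tnni1, Tnnc1, Tnnc2, Tnnt1 and Tnnt3 had 1 probe set each, Tnni2 had 3, Tpm1 and Tpm2 had 4 each, and Tpm3 had 5. All 21 passed the filter on dim probe sets, as did 22648 probe sets with 1 symbol in all. The 4 groups were the soleus of KO and of WT mice and the TA of KO and of WT mice, where KO mice carry a knockout of H6pd and WT mice are wild type, all aged 4 weeks. H6pd encodes hexose-6-phosphate dehydrogenase, which makes NADPH inside the endoplasmic reticulum. Each group had 3 one-colour Affymetrix arrays, called biological replicates in the titles, and per the design text the weaned mice had no overt signs of myopathy in histology. The labels name neither strain nor sex, nor the deleted part of H6pd. The design text names the pair of muscles for their unlike fibre types and metabolism, so the comparisons ask how they differ within each genotype and how the knockout differs from the wild type within each muscle.

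In striated muscle, tropomyosin lies along the actin filament and covers the sites to which myosin binds. The troponin complex sits on it: troponin C binds calcium, troponin I inhibits the filament at rest and troponin T anchors the complex to tropomyosin, so that calcium release uncovers the sites. Slow fibres use the isoforms from Tnni1, Tnnc1 (shared with the heart), Tnnt1 and Tpm3, while fast fibres use those from Tnni2, Tnnc2, Tnnt3 and Tpm1, and Tpm2 encodes beta-tropomyosin, which both fibre kinds contain. Tropomyosin genes also make cytoskeletal isoforms from other start sites and exons.

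To show what lies upstream of the genes whose signals separated the muscles, the 250 bases before the RefSeq start sites are printed from assembly GRCm38.p6, 5′ to 3′ on the gene's own strand. Of the 9 genes, 7 had an entry in the RefSeq promoter table, with 9 start sites in all. The slow troponin genes and the fast gene Tnnc2 are shown for contrast, and both start sites of Tpm3 because its probe sets did not follow one pattern. Capitals mark matches on either strand to an E-box (CANNTG, bound by myogenic factors such as MyoD) or an M-CAT element (CATTCC, bound by TEAD factors). They also mark a TATA box (TATAAA), a MEF2 site (YTAWWWWTAR) or a CArG box (CCWWWWWWGG). Here N is any base, Y is C or T, R is A or G, and W is A or T. No match of one motif overlapped a match of another in these windows.
Tnni1, chr1:135799171-135799420, + strand: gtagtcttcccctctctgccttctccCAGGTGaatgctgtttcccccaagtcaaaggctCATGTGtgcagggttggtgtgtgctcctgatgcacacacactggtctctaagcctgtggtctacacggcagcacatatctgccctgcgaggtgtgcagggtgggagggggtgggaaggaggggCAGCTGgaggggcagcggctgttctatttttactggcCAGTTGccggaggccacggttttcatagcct
Tnnc1, chr14:31208062-31208311, + strand: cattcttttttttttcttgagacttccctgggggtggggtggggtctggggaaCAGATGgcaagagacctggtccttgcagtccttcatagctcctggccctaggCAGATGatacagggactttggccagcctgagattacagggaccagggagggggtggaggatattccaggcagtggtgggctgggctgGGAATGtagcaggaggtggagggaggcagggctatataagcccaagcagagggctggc
Tnnt1, chr7:4515976-4516225, - strand: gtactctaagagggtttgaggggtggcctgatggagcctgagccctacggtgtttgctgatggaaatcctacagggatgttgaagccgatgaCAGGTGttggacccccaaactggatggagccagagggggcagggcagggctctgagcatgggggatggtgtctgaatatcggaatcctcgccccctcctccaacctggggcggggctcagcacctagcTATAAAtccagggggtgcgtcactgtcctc
Tpm3, upstream start site, chr3:90072401-90072650, + strand: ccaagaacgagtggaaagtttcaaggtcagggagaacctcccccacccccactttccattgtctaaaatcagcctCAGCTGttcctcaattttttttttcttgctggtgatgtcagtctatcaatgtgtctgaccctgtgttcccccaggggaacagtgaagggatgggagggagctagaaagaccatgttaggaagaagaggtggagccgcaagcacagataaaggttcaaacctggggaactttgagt
Tpm3, downstream start site, chr3:90079271-90079520, + strand: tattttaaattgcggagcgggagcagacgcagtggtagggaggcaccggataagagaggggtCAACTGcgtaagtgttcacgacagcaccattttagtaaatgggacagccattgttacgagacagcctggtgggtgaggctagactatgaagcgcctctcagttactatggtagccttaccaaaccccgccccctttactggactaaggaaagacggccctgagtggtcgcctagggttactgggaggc
Tnnc2, chr2:164779735-164779984, - strand: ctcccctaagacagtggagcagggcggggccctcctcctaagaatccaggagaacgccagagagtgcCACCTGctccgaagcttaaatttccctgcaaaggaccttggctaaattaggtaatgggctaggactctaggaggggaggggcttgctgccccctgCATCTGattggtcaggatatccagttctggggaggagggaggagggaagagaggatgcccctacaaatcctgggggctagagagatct

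The printed Tnni1 window held 4 E-boxes, those of Tnnc1 and Tnnc2 held 2 each, and those of Tnnt1 and Tpm3 held 1 each. The window of the other Tnni1 start site, 90 bases away and not printed, held 2. The windows of Tpm1 and Tpm2, also not printed, held 1 each. An E-box is common, since 66.2% of 32851 windows of this length held one. Tnnc1 and the fast gene Tpm1 also had 1 M-CAT element each, present in 12.6% of windows, and Tnnt1 had 1 TATA box, present in 12.4%. No MEF2 site (2.92% of windows) and no CArG box (1.47%) was found in these letters. Only exact matches to the stated patterns count, so the letters tatataag near the end of the Tnnc1 window are unmarked. The start sites of Tpm3 lie 6870 bases apart within a gene that the annotation places at chromosome 3, 90072651 to 90100902. The printed Tnni1 window lies inside its annotated gene (chromosome 1, 135783033 to 135810989), before one of its 2 listed start sites. These matches are descriptions of the letters.

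Values below are quantile-normalized log2 signals, a difference of 1 being a factor of 2, and each gene is represented by its brightest probe set unless another is named. Levels of different probe sets are not compared, because probes differ in brightness. Differences were tested with limma over all 22648 probe sets and called at a Benjamini-Hochberg adjusted p under 0.05. The arrays numbered 3 stood apart from the others: on the second principal component, which held 23.8% of the variance, they lay between -55.1 and -38.95 and the other 8 between 11.07 and 32.3. Each group held 1 of them. The H6pd probe set had 4.19, 4.41 and 6.10 in KO soleus against 5.57, 6.12 and 7.11 in WT soleus (difference -1.36, limma adjusted p = 0.654). It had 6.89, 6.49 and 7.49 in KO TA against 6.37, 6.26 and 7.92 in WT TA (difference 0.11, adjusted p = 0.972). No source here states whether this probe set reads the deleted part, so the genotypes are those of the labels, unchecked by this signal.

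The slow thin filament genes marked the soleus in both genotypes. In WT mice 11 of the 21 probe sets (52.4%) differed between soleus and TA by the test, 8 higher and 3 lower in soleus, against 7.70% of all probe sets tested (3.30% higher and 4.40% lower). In KO mice 9 (42.9%) were higher and none lower, against 6.60% (3.11% higher and 3.49% lower). The median difference over the 21 was 0.17 in WT and 0.60 in KO mice, against -0.02 over all probe sets in each genotype. Values of soleus and TA did not overlap for 15 probe sets in WT mice (background 33.0%) and for 16 in KO mice (background 27.7%). In whole muscle, fewer cells of a type and less RNA per cell cannot be told apart.

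Tnni1, slow troponin I, had the widest muscle difference of the 9 genes in WT mice. Its signal was 14.80, 14.71 and 14.39 in KO soleus and 14.77, 14.68 and 14.22 in WT soleus. It was 7.63, 7.63 and 8.42 in KO TA and 7.04, 6.83 and 4.86 in WT TA. The soleus arrays of both genotypes overlapped and all lay far above every TA array. The soleus-minus-TA difference was 6.74 (SE 0.50, 107-fold, limma adjusted p = 8.51e-05) in KO mice and 8.31 (SE 0.50, 318-fold, adjusted p = 1.53e-05) in WT mice.

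Tnnc1, slow troponin C, followed the same order of muscles. It had 14.65, 14.61 and 14.33 in KO soleus, 14.71, 14.57 and 14.38 in WT soleus, 7.96, 7.97 and 8.31 in KO TA, and 6.93, 7.44 and 5.54 in WT TA. Soleus exceeded TA by 6.45 in KO mice and by 7.92 in WT mice (SE 0.39 for each; adjusted p = 2.35e-05 and adjusted p = 3.66e-06). Tnnt1, slow troponin T, had 15.51, 15.40 and 15.11 in KO soleus, 15.23, 15.11 and 14.79 in WT soleus, 9.16, 8.76 and 8.49 in KO TA, and 8.28, 8.54 and 5.56 in WT TA. Its muscle difference was 6.54 in KO mice and 7.58 in WT mice (SE 0.63 for each; adjusted p = 0.000492 and adjusted p = 0.000167). For both genes, too, the soleus arrays of the 2 genotypes overlapped and no TA array came near them. The sizes in WT mice leaned on WT TA replicate 3: without it they were 7.62 for Tnni1, 7.37 for Tnnc1 and 6.63 for Tnnt1.

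Tpm3, the slow alpha-tropomyosin, was read by probe sets of unlike behaviour. The brightest, 1449996_a_at, had 15.84, 15.48 and 15.35 in KO soleus, 15.84, 15.74 and 15.74 in WT soleus, 8.87, 8.47 and 8.18 in KO TA, and 8.04, 9.16 and 7.56 in WT TA. Its soleus-minus-TA difference was 7.05 in KO and 7.52 in WT mice (SE 0.35 for each; adjusted p = 5.59e-06 and adjusted p = 2.49e-06). Probe set 1449997_at differed alike, by 6.48 and 6.98. Leaving out any single array ended none of the calls of these 2 probe sets or of the 3 slow troponins in either genotype.

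**Figure D1:**
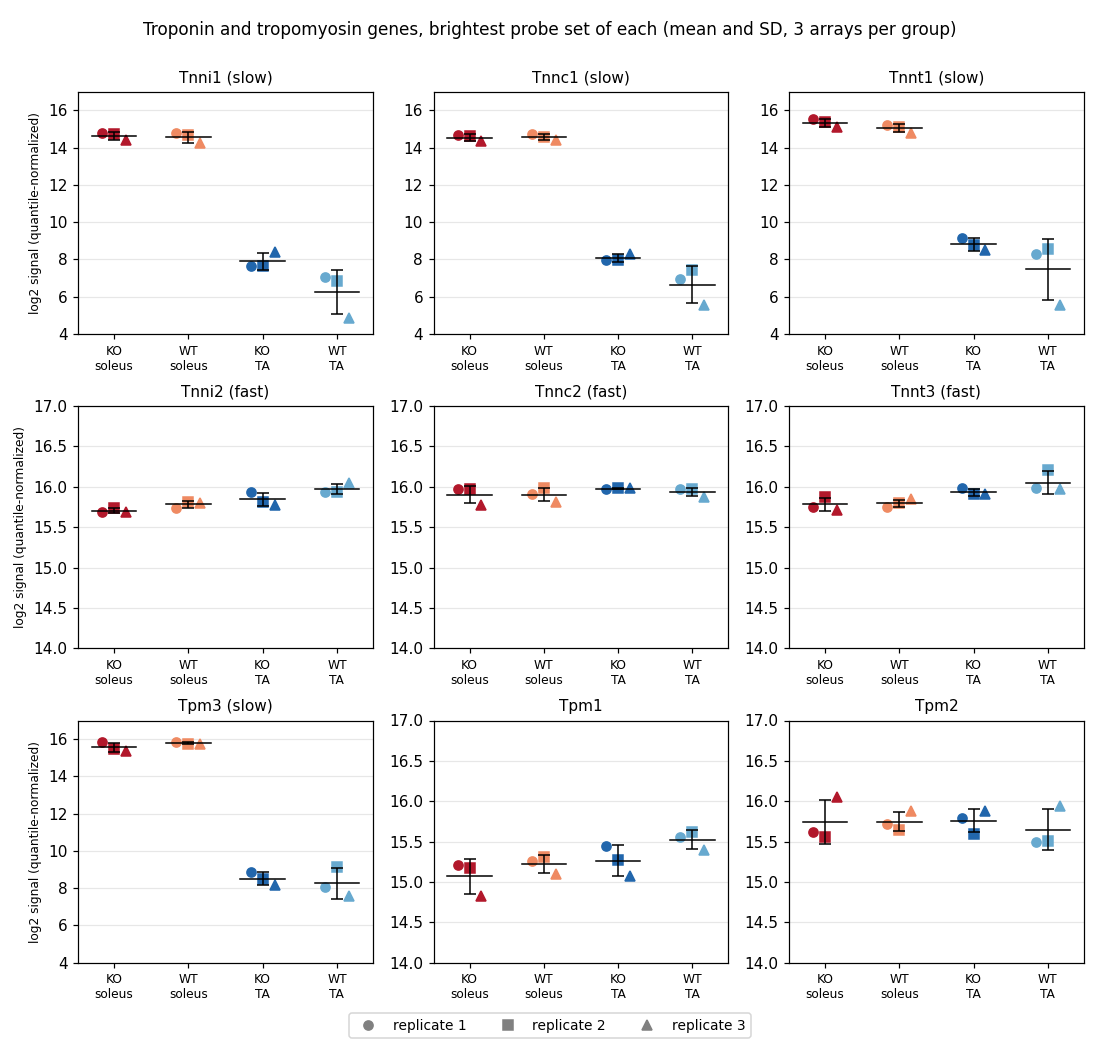
Quantile-normalized log2 signal of the brightest probe set of each of the 9 genes, 1 point per array with the replicate number as its shape, and the mean with SD of 3 arrays per group. The 4 slow genes, on one shared axis, lie above 14 on every soleus array and far lower in TA, whereas the fast genes, Tpm1 and Tpm2, on a narrower axis, are bright in both muscles.

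The fast isoforms were bright in both muscles. Tnni2, fast troponin I, had 15.69, 15.74 and 15.69 in KO soleus, 15.74, 15.82 and 15.80 in WT soleus, 15.94, 15.82 and 15.78 in KO TA, and 15.94, 15.94 and 16.05 in WT TA. Tnnc2, fast troponin C, lay between 15.78 and 15.98 on all 12 arrays. Tnnt3, fast troponin T, lay between 15.71 and 15.88 in KO soleus, between 15.75 and 15.84 in WT soleus, between 15.91 and 15.98 in KO TA, and between 15.97 and 16.21 in WT TA. The fast genes thus stood near the top of the scale everywhere: Tnni2 ranked between 3 and 16 of all probe sets of an array, Tnnc2 between 4 and 12 and Tnnt3 between 2 and 15, and the highest normalized value was 16.29. How far so bright a probe set can still report a difference was not tested.

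The soleus-minus-TA differences of the brightest fast troponin probe sets were small and did not pass the test with all arrays weighted alike. For Tnni2 the difference was -0.14 in KO mice and -0.19 in WT mice, with adjusted p of 0.251 and 0.1, and the muscles did not overlap in either genotype. For Tnnt3 it was -0.15 and -0.26, with adjusted p of 0.321 and 0.0815, again without overlap, and with array weights, which let less typical arrays count less, the WT difference passed (-0.25, adjusted p = 0.0311). For Tnnc2 it was -0.07 and -0.03, with overlap. The dimmer Tnni2 probe sets were lower in WT soleus than in WT TA by the test. Probe set 1438608_at averaged 6.63 ± 0.34 in WT soleus and 7.76 ± 0.45 in WT TA (SD, n = 3 each), a difference of -1.13 (SE 0.27, limma adjusted p = 0.0355), and 1438609_x_at differed by -0.30 (adjusted p = 0.0338). In KO mice the same probe sets differed by -0.65 and -0.20, with adjusted p of 0.211 and 0.144. The call of 1438608_at ended without WT soleus replicate 1 or 2 or WT TA replicate 1 or 3 (adjusted p 0.0641 to 0.127), and that of 1438609_x_at without any of the WT soleus arrays or WT TA replicate 1 or 2 (0.0535 to 0.116). Both calls also ended with median centring, where 1438608_at differed by -0.90 (0.0965) and 1438609_x_at by only -0.17 (0.171), in the table as deposited (0.0593 and 0.0516) and with only the arrays compared (0.109 and 0.122).

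The tropomyosins of fast fibres showed smaller muscle differences than Tpm3. Tpm1 averaged 15.07 ± 0.22 in KO soleus, 15.22 ± 0.11 in WT soleus, 15.27 ± 0.19 in KO TA and 15.53 ± 0.12 in WT TA (SD, n = 3 each). Its soleus-minus-TA difference was -0.20 in KO mice (adjusted p = 0.447) and -0.31 in WT mice (0.186), and with the replicate number as a block the WT difference passed the test (adjusted p = 0.0281). A second, dimmer probe set of Tpm1, 1447713_at, was lower in WT soleus than in WT TA by 1.36 (log2 difference -1.36, SE 0.21, adjusted p = 0.00412), a call that held without any single array. In KO mice it differed by -0.78 (adjusted p = 0.0537), and it passed there with the replicate block (0.0307), array weights (0.0303), a filter at a mean above 5 (0.032) or without KO TA replicate 2 (0.0392).

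For Tpm2, 2 of the 4 probe sets were higher in soleus in both genotypes. Probe set 1425028_a_at had 15.44, 15.50 and 15.50 in KO soleus, 15.56, 15.56 and 15.51 in WT soleus, 15.18, 14.74 and 14.72 in KO TA, and 15.02, 15.13 and 14.90 in WT TA. No soleus array overlapped a TA array, and the difference was 0.60 in KO mice (adjusted p = 0.0153) and 0.53 in WT mice (0.0244). Probe set 1419738_a_at differed by 0.79 (0.0135) and 0.65 (0.0284). The third, 1419739_at, differed by 0.63 (0.0924) and 0.70 (0.0603), and with the replicate block the WT difference passed (0.0454). The brightest, 1449577_x_at, differed by -0.01 and 0.10 and its groups overlapped. It ranked between 3 and 25 of all probe sets of an array, near the top of the scale like the fast troponins. Whether it can still report a difference there was likewise not tested. Its suffix _x_at marks probe sets that may also match other sequences, and whether this one does was not tested either. These calls rested on small margins: in KO mice that of 1425028_a_at ended without KO soleus replicate 2 or KO TA replicate 2 or 3 (0.0501 to 0.065) and that of 1419738_a_at without KO soleus replicate 1 or KO TA replicate 2 (0.0524 and 0.0587). In WT mice that of 1425028_a_at ended without WT soleus replicate 1 or 2 or WT TA replicate 1 or 3 (0.0682 to 0.0788), and that of 1419738_a_at without any WT soleus array or WT TA replicate 1 or 3 (0.0643 to 0.0897).

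**Figure D2:**
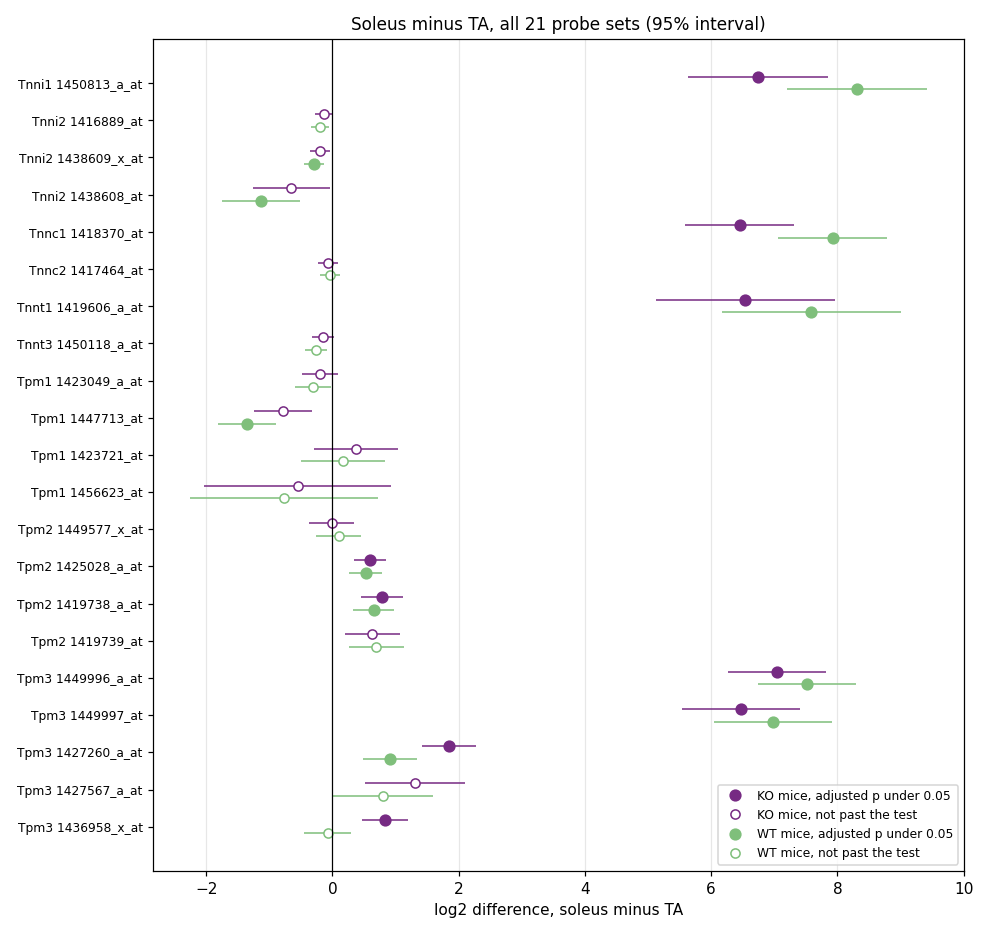
Log2 difference of soleus minus TA for all 21 probe sets, in KO mice (purple, upper point of each row) and WT mice (green, lower point), with the 95% interval of the model; filled points passed the test. The slow troponins and 2 probe sets of Tpm3 lie between 6.45 and 8.31, and the fast troponins and Tpm1 lie near or below 0 apart from the Tpm1 probe set 1423721_at, at 0.38 and 0.17.

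In TA, the knockout had higher means of the slow troponins, but none of them passed the test. Of the 21 probe sets 1 (4.76%) was called in KO against WT TA, a lower one of Tpm1, against 2.02% of all probe sets tested (0.976% higher and 1.05% lower). The median difference was -0.12 over the 21 and -0.00 over all probe sets. KO and WT TA did not overlap for 4 probe sets (19.0%), 2 higher and 2 lower in KO, against 21.7% of all. The share of members called or separated was thus near the background.

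Tnni1 averaged 7.89 ± 0.45 in KO TA and 6.24 ± 1.20 in WT TA (SD, n = 3 each), a difference of 1.65 (95% interval 0.54 to 2.76, limma adjusted p = 0.135). Its 3 KO TA values, given above, all exceeded the 3 of WT TA. Tnnc1 averaged 8.08 ± 0.20 in KO TA and 6.63 ± 0.98 in WT TA, a difference of 1.45 (0.58 to 2.31, adjusted p = 0.095), also without overlap. Tnnt1 averaged 8.80 ± 0.34 in KO TA and 7.46 ± 1.65 in WT TA, a difference of 1.34 (-0.08 to 2.76, adjusted p = 0.359), with WT TA replicate 2 above KO TA replicate 3. In the table as deposited, before quantile normalization, the Tnnt1 groups did not overlap (difference 1.45, limma adjusted p = 0.293). On the normalized scale Tpm3 differed by 0.26 (-0.52 to 1.03, adjusted p = 0.809), with overlap.

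These differences leaned on WT TA replicate 3, the lowest of the 6 TA arrays for all 4 slow genes. Without it the KO-minus-WT difference was 0.95 for Tnni1, 0.89 for Tnnc1, 0.39 for Tnnt1 and -0.09 for Tpm3. Without WT TA replicate 2, in contrast, Tnnc1 passed the test (1.85, adjusted p = 0.0482). The same array was lowest for some other genes of slow fibres but not for all. It was lowest for Myh7, Myl2, Myl3, Atp2a2, Myoz2, Csrp3 and Casq2. Sln, Pln, Myh7b, Myom3, Mybpc1 and Myl6b each had a lower value on another TA array. Myh7, the slow myosin heavy chain, had 8.04, 7.44 and 8.21 in KO TA against 7.11, 8.25 and 2.66 in WT TA, its last value being under the level of 2.76 used to filter dim probe sets. Myl2, the slow regulatory light chain, had 10.77, 9.56 and 9.19 in KO TA against 9.46, 9.56 and 6.44 in WT TA. The log2 of the summed signal of the 4 slow fibre markers (Myh7, Myl2, Myl3 and Atp2a2) ran between 11.61 and 12.43 in KO TA and between 10.09 and 11.37 in WT TA. The part of fibre make-up in the troponin differences was not tested.

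**Figure D3:**
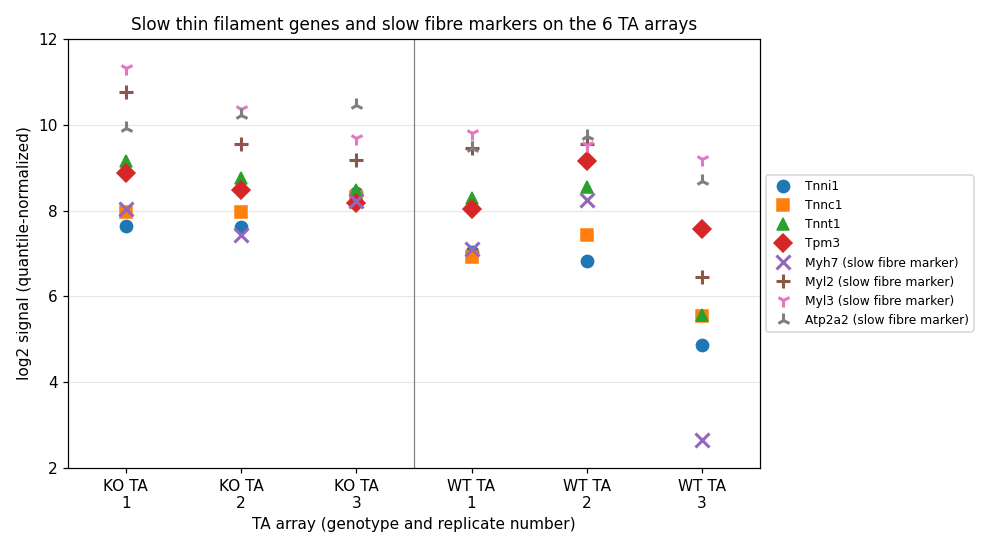
Quantile-normalized log2 signal of Tnni1, Tnnc1, Tnnt1 and Tpm3 and of 4 slow fibre markers on the 3 KO TA arrays (left) and the 3 WT TA arrays (right), 1 column per array. WT TA replicate 3 has the lowest value of each of the 8 genes, among them Tnni1 at 4.86 and Myh7 at 2.66.

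Of the fast genes in TA, Tnni2 differed by -0.13 (95% interval -0.27 to 0.01, adjusted p = 0.377) between KO and WT, Tnnt3 by -0.12 (adjusted p = 0.537) and Tnnc2 by 0.04 (0.873), all with overlap. The dimmer Tnni2 probe set 1438609_x_at had lower values in all 3 KO TA arrays, between 14.56 and 14.67, against 14.70 to 14.84 in WT TA (difference -0.18, adjusted p = 0.251). In the table as deposited, before quantile normalization, Tnni2 had 15.91, 15.78 and 15.75 in KO TA against 16.06, 16.03 and 16.03 in WT TA. There the groups did not overlap, and the difference of -0.22 missed the test (adjusted p = 0.172). On the same scale Tnnt3 differed by -0.19 without overlap (0.265), and Tnnc2 turned sign to -0.10 (0.544).

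The member that fell in KO TA was the dimmer Tpm1 probe set 1447713_at. Its signal was 11.37, 10.51 and 10.76 in KO TA against 11.74, 11.86 and 12.03 in WT TA, and 10.13, 9.95 and 10.20 in KO soleus against 10.44, 10.32 and 10.79 in WT soleus. In each muscle every KO array lay below every WT array. The difference was -0.998 in TA (SE 0.21, 0.50 times the WT level, limma adjusted p = 0.0423) and -0.42 in soleus (SE 0.21, adjusted p = 0.696). The TA call ended without KO TA replicate 2 or 3 or any WT TA array (adjusted p 0.0923 to 0.145), and held without KO TA replicate 1. The other probe sets of Tpm1 differed in the same direction in TA, by -0.26, -0.33 and -0.69, with adjusted p of 0.39, 0.679 and 0.703 and overlap. No source used here states which Tpm1 transcripts the probe set reads.

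In soleus, none of the 21 probe sets passed the test in KO against WT, where 0.0221% of all probe sets did. At an unadjusted p under 0.05 there were 2, against 7.76% of all probe sets, and 4 had KO and WT arrays that did not overlap (19.0%, against 11.2% of all), 2 higher and 2 lower. The median difference was -0.08 over the 21 and 0.00 over all. The slow troponins had differences near 0 with wide intervals: Tnni1 differed by 0.07 (95% interval -1.04 to 1.18), Tnnc1 by -0.02 (-0.88 to 0.84) and Tnnt1 by 0.30 (-1.12 to 1.71). The fast ones differed by -0.08 for Tnni2 (-0.22 to 0.06), 0.00 for Tnnc2 (-0.16 to 0.16) and -0.02 for Tnnt3 (-0.19 to 0.16), with adjusted p of 0.91 for Tnni2 and 1 for Tnnc2 and Tnnt3. In the table as deposited the soleus difference was -0.19 for Tnni2, whose KO and WT arrays did not overlap there. It was -0.06 for Tnnc2 and -0.11 for Tnnt3, both with overlap. None of them passed the test (limma adjusted p of 0.578, 0.983 and 0.869).

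The pair of probe sets with the smallest p in soleus belonged to Tpm3. Probe set 1427260_a_at had 11.54, 11.45 and 11.49 in KO soleus against 10.85, 10.69 and 10.12 in WT soleus, and 9.82, 9.51 and 9.62 in KO TA against 9.68, 9.87 and 9.38 in WT TA. KO soleus stood above all other arrays, and in TA the genotypes overlapped. The KO-minus-WT difference was 0.94 in soleus (SE 0.19, unadjusted p = 0.000585, limma adjusted p = 0.189) and 0.01 in TA. With array weights the soleus difference was 0.85 and passed (adjusted p = 0.0356). Probe set 1436958_x_at had 5.97, 5.80 and 6.37 in KO soleus against 5.15, 5.34 and 5.30 in WT soleus, a difference of 0.79 (SE 0.16, adjusted p = 0.204). It lay between 5.07 and 5.39 in KO TA and between 5.29 and 5.43 in WT TA. The fifth probe set, 1427567_a_at, differed by 0.66 in soleus (adjusted p = 0.764) with overlap, while the 2 bright ones differed by -0.22 and -0.31.

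The 5 probe sets of Tpm3 thus did not read one level. Between muscles the 2 bright ones differed by 6.48 to 7.52, and the other 3 by far less. Probe set 1427260_a_at was higher in soleus by 1.85 in KO mice (adjusted p = 0.000606) and by 0.91 in WT mice (0.0186), the WT call ending without WT soleus replicate 1 or 2 or WT TA replicate 1 or 3 (0.0529 to 0.0716). Probe set 1427567_a_at differed by 1.31 (0.0603) and 0.80 (0.206), and passed in both genotypes with the replicate block (0.00576 and 0.0347). Probe set 1436958_x_at differed by 0.83 in KO mice (0.0167), a call that ended without KO TA replicate 1 or 3 (0.0623 and 0.0531), and by -0.08 in WT mice (0.815). In this array family the suffix _x_at marks probe sets that may also match other sequences, and _a_at those that match several transcripts of a gene. No source used here ties a probe set to either of the Tpm3 start sites printed above.

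**Figure D4:**
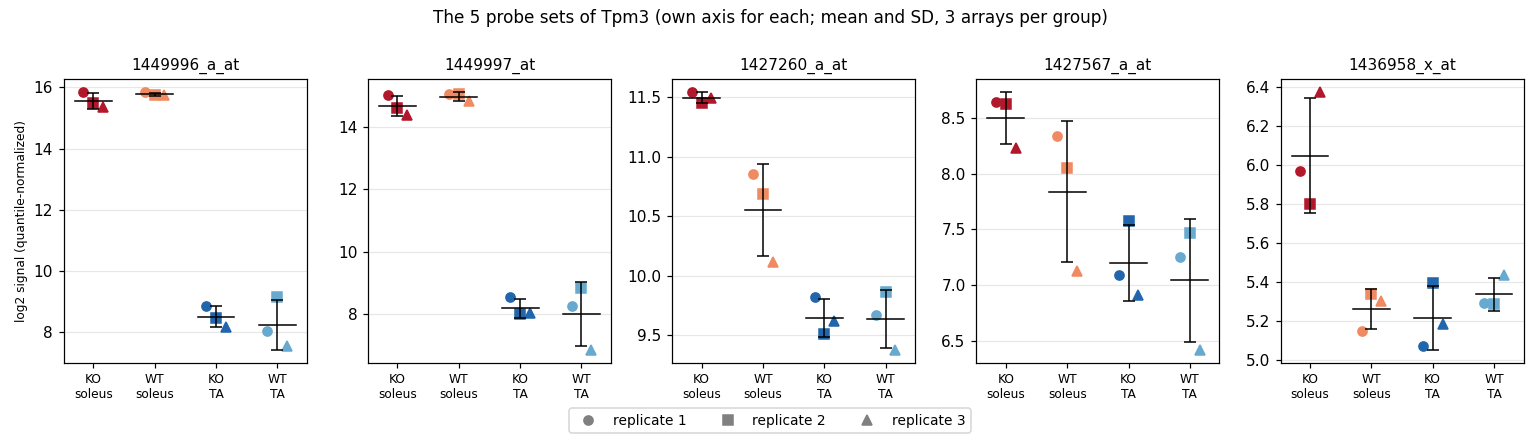
Quantile-normalized log2 signal of the 5 probe sets of Tpm3, each on its own axis, 1 point per array with the mean and SD of 3 arrays per group. In the 2 panels at the left both soleus groups stand far above TA, and in the panels of 1427260_a_at and 1436958_x_at the KO soleus arrays stand above all others (11.45 to 11.54 and 5.80 to 6.37).

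**Figure D5:**
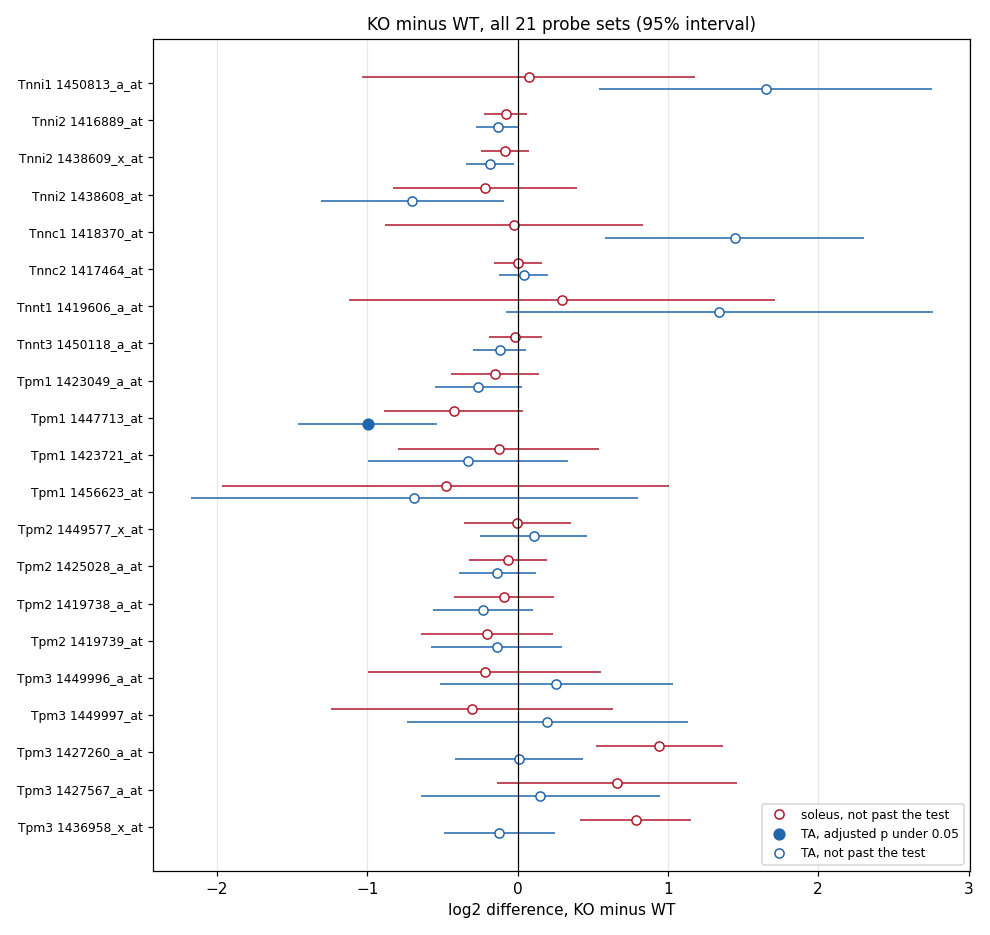
Log2 difference of KO minus WT for all 21 probe sets, in soleus (red, upper point of each row) and TA (blue, lower point), with the 95% interval of the model; the filled point passed the test. Only Tpm1 1447713_at in TA is filled (-0.998), and the widest positive differences are those of Tnni1, Tnnc1 and Tnnt1 in TA (1.65, 1.45 and 1.34).

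The difference between the knockout effects, soleus minus TA, passed the test for none of the 21 probe sets, against 0.0353% of all. At an unadjusted p under 0.05, which 5.27% of all probe sets reached, limma gave 4 of them: Tnni1 (-1.58), Tnnc1 (-1.47) and the Tpm3 probe sets 1427260_a_at (0.93) and 1436958_x_at (0.91). Their adjusted p ran between 0.543 and 0.947. Effects of the knockout on these genes were therefore not shown to differ between the muscles. The median difference of effects was 0.10 over the 21 and 0.00 over all.

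Across the 12 arrays the 4 slow genes had like profiles. After removing each gene's own mean, the root mean square distance between Tnni1 and Tnnc1 was 0.29 on the log2 scale, between Tnnc1 and Tnnt1 0.38, and between Tnni1 and Tpm3 0.72, against 3.94 between Tnni1 and Tnni2. Among 8555 other genes the 5 nearest to Tnni1 were Myl2 (0.77), Tecrl (0.86), Lgi1 (0.88), Myh7 (0.90) and Myl3 (1.06). Tecrl and Lgi1 averaged between 9.42 and 10.06 in soleus and near the floor, between 2.72 and 2.92, in TA of both genotypes. The 5 nearest to Tnni2, Rogdi, Prickle2, Brf1, Marchf5 and Inafm2, lay at 0.05 to 0.06, and like Tnni2 they differed little between the groups. Not every nearly flat profile lay so near, since Tnnc2 lay at 0.118 and Tpm2 at 0.212 from Tnni2.

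Partners of the thin filament moved between the muscles in both directions. In WT mice 3 of 14 measured genes were higher and 2 lower in soleus, with a median of 0.22. Over all probe sets tested, 3.30% were higher and 4.40% lower. Lmod2, a leiomodin of the filament's pointed end, was 3.39 higher (adjusted p = 0.00425), Lmod3 was 0.998 higher and the muscle cofilin Cfl2 0.77 higher. Tmod1, a tropomodulin that caps the pointed end, differed by -1.63 (adjusted p = 0.000266). In KO mice 2 were higher and 1 lower, Lmod2 (3.35), Lmod3 (0.60) and Tmod1 (-1.41), against 3.11% higher and 3.49% lower of all probe sets. In KO against WT TA 1 of the 14 passed: Tmod4, the tropomodulin of skeletal muscle, had 13.23, 12.94 and 13.05 in KO TA against 13.72, 13.74 and 13.80 in WT TA, and fell by 0.68 (adjusted p = 0.0151). In soleus none passed, and Tmod4 differed by -0.43 (adjusted p = 0.273). The Tmod4 call in TA was lost without KO TA replicate 2 (adjusted p = 0.0658) or 3 (0.0536). The Cfl2 call was lost without WT soleus replicate 1 (0.101) or 2 (0.0851) or WT TA replicate 2 (0.0557). The Lmod3 call in KO mice was lost without any one KO array other than soleus replicate 3, with adjusted p between 0.0544 and 0.102.

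Slow genes of the thick filament, Z-disc and sarcoplasmic reticulum separated the muscles as the slow troponins did. In soleus against TA 11 of 13 were higher in each genotype, against 3.11% of all probe sets tested in KO and 3.30% in WT mice. The median was 3.57 in KO and 3.83 in WT mice. Those called included Myh7 (7.45 and 9.46) and sarcolipin, Sln (6.96 and 8.67). These 2 sizes are not exact, since Sln had 2.67 on KO TA replicate 2 and 2.68 on WT TA replicate 2, and Myh7 2.66 on WT TA replicate 3, all under the filter level of 2.76. Without WT TA replicate 3 the WT difference of Myh7 was 7.78 and that of Sln 9.39, and without KO TA replicate 2 or 3 the KO difference of Sln was 5.92 or 8.19. In KO against WT TA 1 of the 13 passed, Myom3, a protein of the M-band. It had 7.35, 6.58 and 6.22 in KO TA against 4.50, 4.27 and 4.30 in WT TA, and rose by 2.36 (adjusted p = 0.00383). The median of the 13 was 0.91, with 11 means higher in KO TA, against -0.00 over all probe sets. As given above, WT TA replicate 3 was the lowest TA array for Myh7, Myl2, Myl3, Atp2a2, Myoz2, Csrp3 and Casq2. How far the median rests on that array was not tested. In soleus none passed and the median was 0.00.

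Among the 14 fast counterparts, 8 were lower and 1, Myh2, higher in soleus in each genotype. Over all probe sets tested, 3.49% were lower and 3.11% higher in KO mice, and 4.40% and 3.30% in WT mice. Myh4, the myosin of the fastest fibres, differed by -4.27 in KO and -4.45 in WT mice, and Actn3, the fast alpha-actinin, by -4.43 and -4.02. Both kept their direction without any single array, but neither stayed past the test throughout. In KO mice Myh4 was lost without soleus replicate 1 or any one TA array (adjusted p between 0.0597 and 0.0805) and Actn3 without TA replicate 1 (0.0542). In WT mice Myh4 was lost without soleus replicate 1 or TA replicate 1 or 2 (between 0.0557 and 0.0727), and Actn3 without any one array other than soleus replicate 2 (between 0.0534 and 0.0718). The calls of Mybpc2 (-3.993 in KO and -3.366 in WT mice) held under all 16 alternatives. Calls of other fast genes were lost in up to 11 of 16 in KO and up to 8 of 16 in WT mice. In KO against WT TA, Myh2, the myosin of fast oxidative fibres, had 14.62, 14.59 and 14.29 in KO TA against 12.66, 12.34 and 13.56 in WT TA, and rose by 1.64 (adjusted p = 0.0149). Ampd1, the AMP deaminase of skeletal muscle, fell by 4.80 (adjusted p = 0.00719). The Myh2 call in TA was lost without KO TA replicate 2 (adjusted p = 0.0654) or WT TA replicate 1 (0.0521). The median of the 14 was -0.34 in TA and -0.41 in soleus, where none passed. Myoz3 and Myoz1, Z-disc proteins of fast fibres, differed by -1.35 and -1.12 in soleus (adjusted p of 0.164 and 0.172).

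Of the regulators of fibre type, 2 of 20 measured fell in KO TA and none rose. Over all probe sets tested, 1.05% fell and 0.976% rose there. The non-coding RNA 2310065F04Rik, called linc-Myh and in mice a promoter of fast over slow genes, averaged 3.26 in KO TA against 9.42 in WT TA (adjusted p = 3.84e-07). In soleus it was near the floor in both genotypes, averaging 3.14 in KO and 3.74 in WT soleus. It was lower in WT soleus than in WT TA (difference -5.675), and the difference of its knockout effects, soleus minus TA, was 5.55. Both passed the test, also under every alternative that tested this RNA. With levels so near the floor in soleus and KO TA, these sizes are not exact. Rbfox1, a splicing regulator of muscle genes, fell by 1.16 in TA (adjusted p = 0.0239) and differed by -0.94 in soleus (0.222). Its call in TA was lost without KO TA replicate 2 (adjusted p = 0.0975) or 3 (0.0842) or WT TA replicate 2 (0.0522) or 3 (0.0513). Between the muscles, Sox6, a repressor of slow genes, was lower in soleus by 1.53 in KO (difference -1.53) and by 1.87 in WT mice (difference -1.87). Rcan1, an inhibitor of calcineurin, was higher by 2.90 and 1.71, the WT call being lost without WT soleus replicate 1 or 2 or WT TA replicate 2 or 3 (adjusted p between 0.0544 and 0.0801). Esrrg was higher by 2.098 in KO and 1.785 in WT mice, and both calls held under all 16 alternatives. Regulators past the test between the muscles numbered 4 higher and 3 lower in KO mice, and 3 higher and 5 lower in WT mice. Over all probe sets tested, 6.60% passed in KO and 7.70% in WT mice. Several of the regulator calls were fragile. That of Myod1 in KO mice (-2.988) was lost in 7 of 16 alternatives. Other regulator calls were lost in up to 11 of 16 in KO and up to 9 of 16 in WT mice. Of 5 measured developmental and cardiac isoforms none passed in KO against WT of either muscle, and Myh3, embryonic myosin, differed by 2.94 in soleus (adjusted p = 0.172). Between the muscles Myh3 was higher in soleus by 4.14 in KO and 2.18 in WT mice, and the WT call was lost without any one WT array other than soleus replicate 3 (adjusted p between 0.06 and 0.161).

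Markers of other cell types were measured beside these genes. In KO against WT no marker of endothelium, smooth muscle, fibroblasts, Schwann cells, adipocytes, myeloid or erythroid cells passed the test in either muscle. Of the 5 tendon markers, Thbs4 fell by 1.58 in KO TA (adjusted p = 0.033), and the log2 summed signal of the list ran between 12.41 and 13.58 in KO TA and between 13.16 and 13.35 in WT TA. The summed fast fibre markers ran between 17.86 and 18.03 in KO TA and between 17.99 and 18.11 in WT TA. Between the muscles, 2 of 5 endothelial markers (Pecam1 by 0.97 and Tek by 0.63) and Adipoq, the 1 adipocyte marker measured (4.61, adjusted p = 0.0289), were higher in WT soleus than in WT TA. The size for Adipoq is not exact. It had 6.00, 6.36 and 2.59 in WT TA, the last value under the filter level of 2.76. In KO mice 2 of 5 tendon markers, Comp (1.70) and Thbs4 (1.30), were higher in soleus. Over all probe sets tested, 3.30% were higher in soleus in WT and 3.11% in KO mice. The calls of Thbs4, Pecam1, Tek, Adipoq and Comp were not tried under the alternatives. The summed endothelial signal ran between 10.65 and 11.13 in KO soleus, 11.04 and 11.24 in WT soleus, 10.71 and 10.80 in KO TA, and 10.40 and 10.78 in WT TA. The summed tendon signal ran between 13.44 and 14.17 in KO soleus and between 13.68 and 14.04 in WT soleus. Adipoq ran between 9.003 and 11.09 in KO soleus, 7.97 and 10.59 in WT soleus, 5.80 and 7.45 in KO TA, and 2.59 and 6.36 in WT TA. The part of these cell types in the results above was not tested.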

How the data were processed

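Gene expression was read on 12 one-colour Affymetrix arrays, 3 per group. The authors deposited log2 signals for 45101 probe sets, from 0.89 to 16.36. Per the labels' protocols, Trizol-extracted total RNA was made into biotinylated cRNA. The submitters' processing notes name MAS5, with no role, and no source here says how the values were summarised. Arrays have no read depth, so the number of arrays limits the precision.

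Arrays were quantile-normalized, since their 2% trimmed mean signals were unequal by up to 1.11 times. Probe sets above the 40th percentile (log2 2.76) on at least 3 arrays and with 1 gene symbol in the probe table were kept, which left 22648. On the array, 932 probe sets carried several symbols, 9160 none, and 64 were controls, against 34945 with 1 symbol. In R 4.3.3 with limma 3.58.1, 4 group means were fitted over all 12 arrays with a variance trend (8 residual degrees of freedom before moderation). Tests were 2-sided, adjusted by Benjamini-Hochberg over all kept probe sets, and called under 0.05. An exact permutation test of 3 against 3 arrays cannot go below p = 0.1. The script was tested on simulated data.

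Where nothing says that replicates came from separate mice, p-values measure the spread between these samples. The members, gene lists and tests were chosen with earlier results of these data known. Every member probe set is accounted for. From each list up to 4 genes past the test with the largest differences were eligible to be named or, with none past, the 2 of smallest p. The 5 genes of nearest profile are named for Tnni1 and Tnni2. List genes not analysed here include Xirp2, Myl7, Tnni3 and Chrng.

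Equal replicate numbers deviated together from their group means: correlations were 0.379, 0.1003 and 0.668 between KO and WT soleus, 0.339, 0.316 and 0.632 between KO and WT TA, 0.448, 0.548 and 0.663 between the KO muscles, and 0.404, 0.156 and 0.614 between the WT muscles. All exceed the limit of 0.1 for pairing, which comes from these values and not from the labels. Unequal numbers reached 0.448, and arrays of unequal genotype and muscle also exceeded the limit (lowest 0.112), though these cannot share a mouse. The fit with the replicate number as a block was an alternative. Others were the table as deposited, median centring, other filters, 1 probe set per gene, array weights, no variance trend, only the arrays compared, and leaving out arrays.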

Additional observations from a re-analysis of the deposited data

How the results depend on the processing

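The soleus-over-TA differences of Tnni1, Tnnc1, Tnnt1 and both bright Tpm3 probe sets kept their direction and stayed past the test in both genotypes under every alternative run. In WT mice 4 probe sets passed with 1 probe set per gene, since only 9 were then tested, and 6 to 10 when single arrays were left out. In KO mice 4 passed with 1 probe set per gene and 7 to 9 without single arrays. The KO calls of Tpm2 1425028_a_at, Tpm2 1419738_a_at and Tpm3 1436958_x_at were lost with only the arrays compared (adjusted p = 0.0927, 0.0823 and 0.104) and without the arrays numbered 3 (0.0955, 0.059 and 0.0992), where 7 passed each time. In WT mice, where 8 passed each time, leaving out the arrays numbered 3 ended those of Tpm2 1425028_a_at (0.0938), Tpm2 1419738_a_at (0.0999) and Tnni2 1438608_at (0.0999), only the arrays compared that of Tpm3 1427260_a_at (0.104), and no filter that of Tnni2 1438608_at (0.0504). With the replicate block 14 passed in WT and 11 in KO mice, 1 in KO against WT TA and 0 in soleus and for the difference of effects, while the share of all probe sets called was 14.6%, 13.2%, 5.44%, 0.0177% and 0.00442%; beyond the member calls given above the block changed none. In KO against WT TA, 0 passed with 1 probe set per gene, median centring, no filter, only the arrays compared or without the arrays numbered 3, and 0 to 1 without single arrays. In KO against WT soleus 1 passed with array weights. With only the arrays compared, the TA calls of Ampd1 (adjusted p = 0.0882), Myh2 (0.123), Myom3 (0.0866), Rbfox1 (0.117) and Tmod4 (0.0932) were lost, and without the arrays numbered 3 those of Ampd1 (0.0633), Rbfox1 (0.104) and Tmod4 (0.126), each in the same direction.

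Differences near 0 turned sign, the cause of which was not tested. With array weights, KO minus WT in soleus was 0.013 for Tnnc1, -0.017 for Tnnc2 and 0.002 for Tnnt3, KO minus WT in TA was -0.017 for Tpm3 1427260_a_at, and WT soleus minus TA was 0.002 for Tnnc2. With median centring, Tnnc2 was -0.078 in soleus and -0.059 in TA, Tpm3 1436958_x_at 0.006 in TA and 0.15 between WT muscles, and the difference of effects -0.012 for Tnni2 1438609_x_at, -0.03 for Tnni2 and -0.016 for Tpm2 1425028_a_at. In the table as deposited, Tnnc2 was -0.058 in soleus, -0.105 in TA and 0.047 for the difference of effects, and WT muscles differed by -0.006 for Tpm2 and 0.072 for Tpm3 1436958_x_at. With only the arrays compared, Tnnc2 was -0.004 in soleus and Tpm2 0.005 between KO muscles. Without the arrays numbered 3, Tnnt3 was 0.043 and Tpm2 1419738_a_at 0 in soleus, Tpm3 1427260_a_at -0.108 and 1449997_at -0.294 in TA, and the difference of effects 0.013 for Tnnc2 and 0.055 for Tpm3 1449997_at.

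Leaving out single arrays turned further signs. KO minus WT in soleus then ran between -0.11 and 0.076 for Tnnc1, -0.044 and 0.064 for Tnnc2, -0.095 and 0.196 for Tnni1, -0.065 and 0.018 for Tnnt3, and -0.153 and 0.093 for Tpm2. In TA it ran between -0.091 and 0.708 for Tpm3, -0.368 and 0.628 for its probe set 1449997_at, and -0.121 and 0.121 for 1427260_a_at. The difference of effects ran between -0.084 and 0.023 for Tnnc2, -0.013 and 0.224 for Tpm2 1425028_a_at, and -0.932 and 0.061 for Tpm3 1449997_at. Soleus minus TA ran between -0.16 and 0.081 for Tpm2 in KO mice and between -0.077 and 0.009 for Tnnc2 in WT mice.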
